A study of Danio rerio with 6 samples.

Results

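The genes of antigen presentation were measured in whole zebrafish larvae at 4 dpf (days post fertilisation) as all 39 genes, of 19260 with a probe set of their own, whose symbol begins with mhc1, mhc2, b2m, tap1, tap2, tapbp, cd74, psmb8 to psmb13 or ciita. A gene with more than 1 probe set was represented by the brightest, and all 39 matched a gene of the RefSeq annotation of the GRCz12tu assembly. The larvae were WT fish of the Tu strain or *il7r*-/- fish, which lack the receptor for interleukin 7 and came from a single line carrying a short CRISPR/Cas9 deletion in a coding exon. There were 3 arrays of each genotype, each made from pooled larvae, and the values are log2 levels after RMA, a procedure that removes background, puts all arrays on one scale and gives a single level for a probe set. The MHC haplotypes of the parents are not given in the sources used here, so a difference that comes with a haplotype and one that comes with the *il7r* genotype cannot be told apart.

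MHC class I molecules show peptides from inside the cell to cytotoxic T cells, and class II molecules show peptides from endosomes to helper T cells. Peptides for class I are cut by the proteasome, whose immune form carries exchanged catalytic subunits, are pumped into the endoplasmic reticulum by the transporter TAP and are loaded with the help of tapasin, while beta-2-microglobulin is the light chain. In zebrafish the classical class I genes are those of the U lineage, and the other lineages are named Z, L and H. Class I haplotypes of zebrafish differ in which genes they carry, so that a probe set can be bright in fish of one haplotype and dark in fish of another.

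No member was all or none between the genotypes, and 1 of 39 passed the test. *mhc1haa*, the class I gene of the H lineage, fell, and the other members had changes from -0.60 to 0.41 on the log2 scale (*il7r*-/- minus WT). A call needed a fold change over 1.5 and an adjusted p under 0.05 in limma, with the Benjamini-Hochberg adjustment made across 75212 probe sets. By this rule 0.182% of all genes were called lower and 0.0519% higher, against 1 and 0 of the 39 members. The median change was 0.06 over the members and -0.02 over all genes, with 15 members below 0 and 24 above.

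Most members were dim. Both group means of 32 of the 39 members lay under 3.905, the level that cuts off the dimmest tertile of genes, as did those of 31.4% of all genes. A probe set this dim may lie near the background of the array, whose level was not measured here. A change in its gene can then be understated, and a small level cannot be told from none. The 7 members at or above the bound in at least 1 group were *mhc1haa*, *mhc1lia*, *mhc1laa*, *b2ml*, *tapbp.2*, *tap1* and *psmb10*. In 5 of them every array was above it.

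The genotypes did not overlap in 5 of 39 members (12.8%), 3 lower and 2 higher in *il7r*-/- larvae. Of all genes 22.3% do not overlap, 13.4% lower and 8.84% higher. Among the 32 dim members there were 2 (6.25%), against 12.8% of all genes that were as dim. Among the 7 brighter members there were 3, namely *mhc1haa*, *mhc1laa* and *psmb10*, against 26.6% of the other genes. The 95% interval of the change lay within 1 on either side of 0 in 37 of 39 members and within the fold of 1.5 in 25. An all-or-none difference was defined as all arrays of one group below the bound, all of the other above it and a change of at least 2, and 0 members met it. With 3 arrays in each genotype the precision is limited, and 0.1 is the smallest p that exact permutation of the labels allows.

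**Figure D1:**
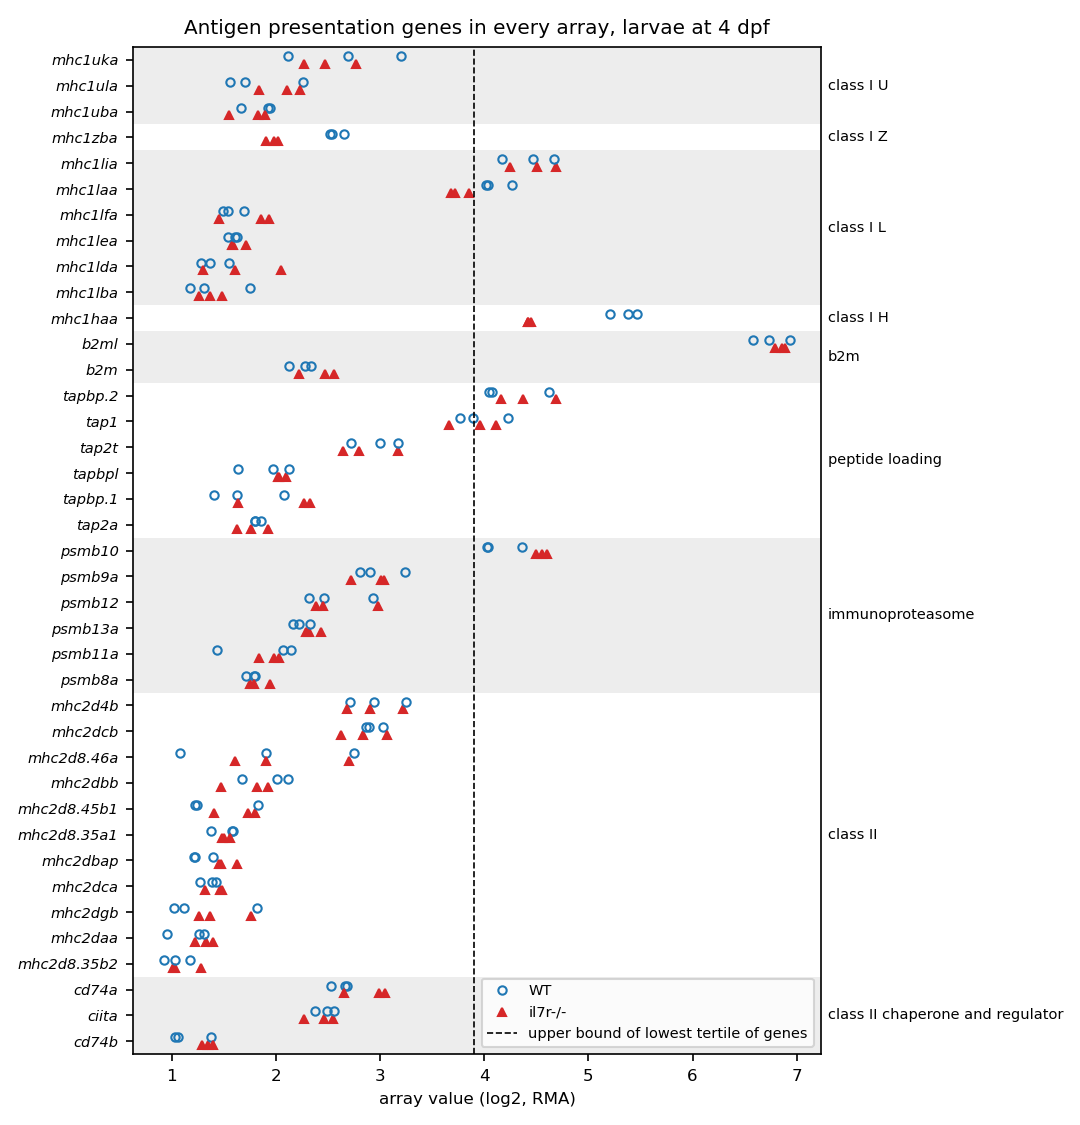
Array values on the log2 scale of the 39 antigen presentation genes, 1 point for each array, open circles for WT and triangles for *il7r*-/- larvae, grouped by class. The dashed line is the bound of 3.905, and only 7 genes lie at or above it in either group.

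The arrays were alike, with Pearson's correlations of 0.965 to 0.977 between WT arrays and 0.979 to 0.98 between *il7r*-/- arrays. Those between arrays of different genotypes, 0.962 to 0.971, overlapped the WT range. Without WT replicate 3 they did not, with 0.9771 between the other WT arrays and at most 0.9714 between genotypes. Such correlations run across all 75212 probe sets, of which 53551 name no gene, and probe sets are no independent replicates. WT replicate 3 stood apart over all genes, where it was the WT array farthest from the other two in 42.8%. Among the members this was so in only 10 of 39, while WT replicate 2 was farthest in 16. Among the *il7r*-/- arrays, replicate 3 was farthest in 20 of 39 members, replicate 2 in 14 and replicate 1 in 5. Over all genes these shares were 33.3%, 32.6% and 34.2%. *il7r* itself was dim, with values of 1.40, 1.80 and 1.76 in WT and 1.42, 1.64 and 1.71 in *il7r*-/- larvae, so the probe set does not show the mutation. Of 8 markers of larval tissues, 6 were measured, and the muscle gene *mylpfa* (9.89 to 10.18) and the neuronal gene *elavl3* (8.53 to 8.77) were bright and steady in all arrays. Others were less steady. The skin gene *krt4* had 10.51, 10.77 and 8.74 in WT and 9.85, 9.76 and 9.42 in the mutants, WT replicate 3 being the lowest. The heart gene *myl7* (change 0.71, limma adjusted p = 0.26) lay higher in *il7r*-/- larvae without overlap, but it was dim (2.18 to 3.43). The lens gene *crybb1* (8.66 to 10.23) lay lower without overlap (-0.97, adjusted p = 0.178). The part of tissue make-up in the members' levels was not tested.

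*mhc1haa* was the member that fell. Its values were 5.38, 5.21 and 5.47 in WT and 4.42, 4.45 and 4.42 in *il7r*-/- larvae. The *il7r*-/- arrays agreed to within 0.03, and all lay at least 0.76 below the lowest WT array. The means were 5.35 ± 0.13 (SD, n = 3) and 4.43 ± 0.02 (SD, n = 3), a change of -0.92 (standard error 0.11, 95% interval -1.19 to -0.65, limma adjusted p = 0.0404). The lower group was still above the level of 3.905, so the probe set was dimmer and not dark in the mutants. The call ended without any 1 of the 6 arrays (adjusted p from 0.0622 to 0.188), although the change itself stayed between -0.995 and -0.865. According to the methods the replicates came from 3 batches of larvae, which the labels do not tie to the replicate numbers. With the replicate number as a block the call was also lost (adjusted p = 0.168), as it was by the methods' test after adjustment (adjusted p = 0.17).

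*mhc1zba*, of the Z lineage, had tight groups at a dim level. Its values were 2.65, 2.54 and 2.52 in WT and 2.02, 1.91 and 1.98 in *il7r*-/- larvae, so every mutant array was below every WT array by at least 0.50. Its change of -0.60 (standard error 0.10, limma adjusted p = 0.105) did not pass the test. Adjusted over only the probe sets that name 1 gene, it did (adjusted p = 0.0319), where 1.11% of all genes were called. Since both groups lie under the level of 3.905, the size of this change is uncertain.

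The classical class I genes of the U lineage were dim in all arrays. *mhc1uka* had values of 2.69, 2.12 and 3.20 in WT and 2.77, 2.27 and 2.47 in *il7r*-/- larvae, which overlap, and WT replicate 3 was the highest. Its change was -0.17 (95% interval -0.85 to 0.51), a range that includes the fold of 1.5 on the lower side. *mhc1ula* had 1.56, 2.26 and 1.70 in WT and 2.11, 2.23 and 1.84 in the mutants, again overlapping, with a change of 0.22 (-0.29 to 0.73). The third, *mhc1uba*, had a change of -0.08 and values of 1.55 to 1.94. At such levels a gene that is missing and one that is little used can give the same reading.

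The L lineage held 2 members near or above the bound, and they differed in pattern. *mhc1lia* had values of 4.17, 4.47 and 4.67 in WT and 4.69, 4.25 and 4.51 in *il7r*-/- larvae. These overlap almost fully, with a change of 0.05 (95% interval -0.38 to 0.47). *mhc1laa* had 4.02, 4.27 and 4.04 in WT and 3.72, 3.85 and 3.68 in the mutants, without overlap. Its change of -0.36 (standard error 0.12) did not pass the test (limma adjusted p = 0.324), and the level of 3.905 lay between the groups. The 4 others, *mhc1lfa*, *mhc1lea*, *mhc1lda* and *mhc1lba*, had values from 1.18 to 2.05 and changes from -0.04 to 0.25.

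The light chain genes had overlapping groups. *b2ml*, a gene like that of beta-2-microglobulin and the brightest probe set of all members, had values of 6.73, 6.93 and 6.58 in WT and 6.86, 6.89 and 6.79 in *il7r*-/- larvae. Its change was 0.10 (95% interval -0.20 to 0.40), which leaves out a fold of 1.5 in either direction. *b2m* was dim, with 2.13, 2.28 and 2.34 in WT and 2.22, 2.47 and 2.56 in the mutants. Its change was 0.17, and a further probe set of the gene had a change of 0.04.

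Peptide loading genes did not pass the test, and none of the 6 had groups without overlap. *tapbp.2*, which encodes a tapasin, had values of 4.07, 4.62 and 4.05 in WT and 4.37, 4.16 and 4.69 in *il7r*-/- larvae, a change of 0.16 (95% interval -0.34 to 0.66). *tap1*, a subunit of the peptide transporter, had 3.77, 3.89 and 4.23 in WT and 3.96, 3.66 and 4.11 in the mutants, a change of -0.05 (-0.48 to 0.37). In both genes the spread within a genotype exceeded the difference between the means. The others were the transporter genes *tap2a* and *tap2t*, the second tapasin gene *tapbp.1* and the tapasin-related gene *tapbpl*, with values from 1.41 to 3.17 and changes from -0.09 to 0.37.

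Among the immunoproteasome genes and their relatives, *psmb10*, the immune form of the subunit with trypsin-like activity in mammals, lay higher in every *il7r*-/- array. It had values of 4.03, 4.36 and 4.04 in WT and 4.50, 4.60 and 4.55 in the mutants. The change was 0.41 (standard error 0.13, 95% interval 0.10 to 0.72) and did not pass the test (limma adjusted p = 0.301). *psmb9a*, another catalytic subunit, had 3.24, 2.81 and 2.90 in WT and 3.01, 3.04 and 2.72 in the mutants, which overlap. Its change was -0.06. *psmb8a*, *psmb11a*, *psmb12* and *psmb13a* had changes from 0.04 to 0.11 at values of 1.44 to 2.98. A list of the constitutive proteasome also held the assembly genes *pomp*, *psmg1* and *psmg2*. Of its 20 genes, 17 were measured with a median change of -0.16. None was called, against 0.182% of all genes called lower and 0.0519% higher. The brightest genes of the list, *psmb2* and *psma4*, had changes of -0.52 (limma adjusted p = 0.485) and 0.21 (adjusted p = 0.734). Of the 17 genes, 4 lay lower and 1, the assembly gene *psmg1* (0.33), higher without overlap (29.4%, against 22.3% of all genes). Only 1 of the 17 had both means under 3.905, and of all genes not that dim 26.6% did not overlap.

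All 11 class II genes were dim, with no array above 3.25. *mhc2d4b* had values of 2.71, 3.25 and 2.94 in WT and 3.22, 2.68 and 2.90 in *il7r*-/- larvae, and *mhc2dcb* had 2.89, 3.03 and 2.87 in WT and 2.63, 2.84 and 3.07 in the mutants. Both overlapped, with changes of -0.03 and -0.08. The other 9 had changes from -0.20 to 0.24. Of these, 2 are named after their values were seen. *mhc2dbap*, which RefSeq does not annotate as protein coding, had 1.40, 1.22 and 1.21 in WT and 1.45, 1.47 and 1.63 in the mutants, which do not overlap (change 0.24, limma adjusted p = 0.478). *mhc2d8.46a* had the widest spread of all members, with 1.91, 1.08 and 2.75 in WT and 1.61, 2.70 and 1.91 in the mutants. Here single arrays of both genotypes were high, and the groups overlapped. The span of 1.67 within WT was the largest of any member within either genotype, and 0 members reached a span of 2.

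The invariant chain, which guards the class II groove until peptides are loaded, and the class II transactivator had overlapping groups. The invariant chain gene *cd74a* had values of 2.53, 2.66 and 2.68 in WT and 2.99, 3.05 and 2.65 in *il7r*-/- larvae, a change of 0.27 (95% interval -0.06 to 0.61). *il7r*-/- replicate 3 was among the WT arrays, and the other two mutant arrays were above all of them. *ciita* had 2.38, 2.49 and 2.56 in WT and 2.46, 2.55 and 2.27 in the mutants, a change of -0.05. *cd74b*, the other invariant chain gene, had a change of 0.19 at values of 1.03 to 1.40, and it is the 1 member on chromosome 21, where *il7r* lies.

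**Figure D2:**
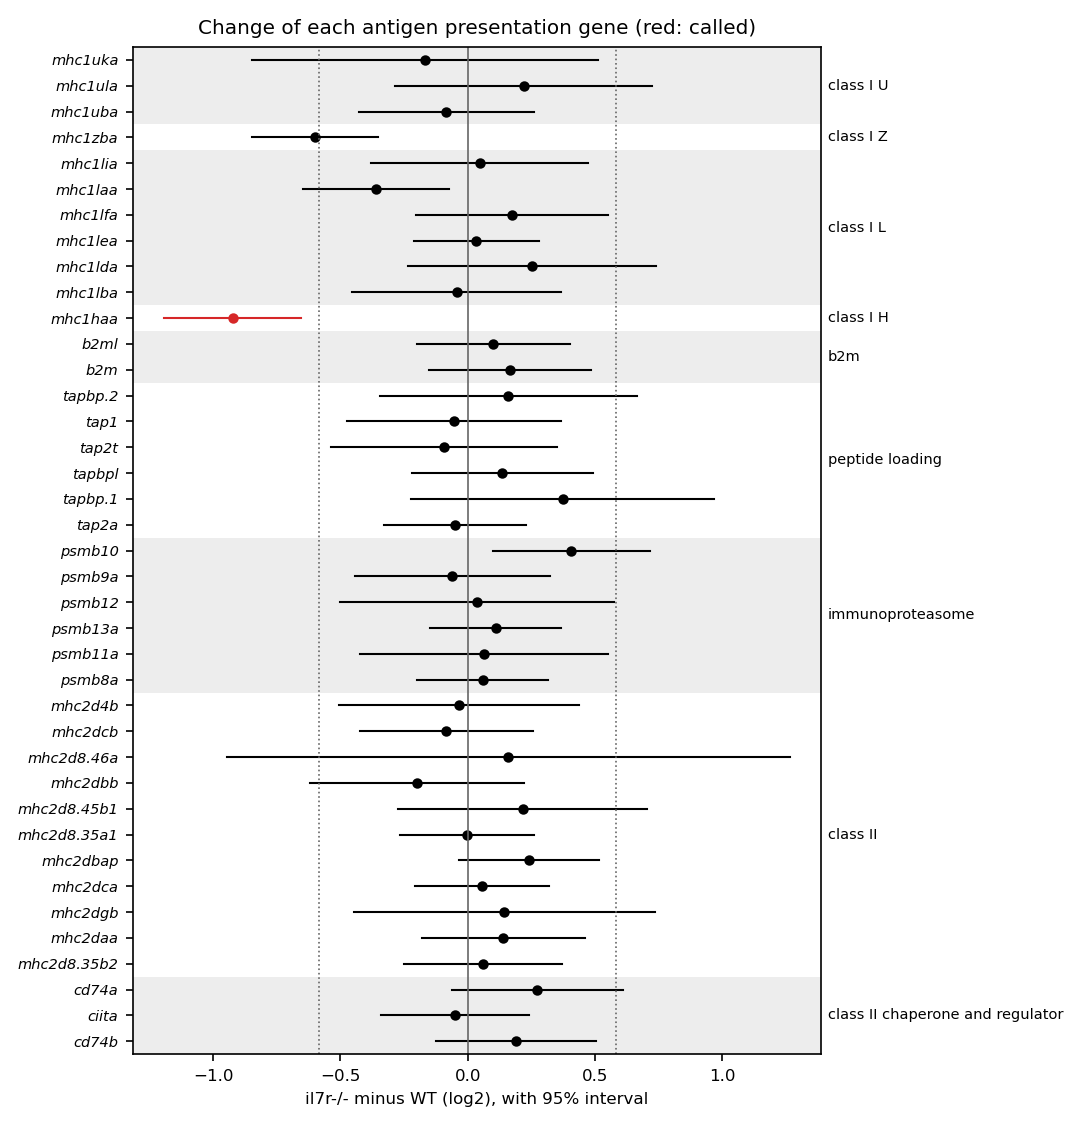
Change of each of the 39 genes in log2 units (*il7r*-/- minus WT), with bars for the 95% interval from limma, grouped by class. The dotted lines mark a fold of 1.5, and *mhc1haa*, in red, at -0.92 is the gene whose whole interval lies beyond one.

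Probe sets that name several genes, among them a gene with the prefixes of the rule, were not counted among the 39. There were 4 of these, and in 0 of them were the genotypes apart. The probe set of *mhc1zca* and *zgc:111893* had values of 3.11, 3.30 and 3.45 in WT and 3.20, 2.73 and 2.89 in *il7r*-/- larvae. That of *mhc1zea* and *zgc:162351* had 2.44, 2.49 and 2.2 in WT and 2.89, 3.05 and 2.30 in the mutants. The changes of these Z lineage probe sets were -0.35 and 0.37, in opposite directions, and neither passed the test (limma adjusted p = 0.469 and 0.551). In GRCz12tu, 13 further genes with these prefixes, *mhc1zca* and *mhc1zea* among them, had no probe set of their own. These 13 were not analysed here as single genes.

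Other genes of the pathway did not pass the test either, which 0.182% of all genes passed as lower and 0.0519% as higher. Of 22 listed genes of class I folding and peptide supply, 20 were measured, none was called, and the median change was -0.05. The brightest were the chaperones *canx* (change -0.20, limma adjusted p = 0.527) and *hspa5* (-0.01). Of 17 class II processing genes, 14 were measured with a median of -0.11, and the brightest were the protease gene *lgmn* (-0.11) and the endosomal gene *cd63* (-0.20). Of the 14, 11 lay below 0, and the cathepsin B gene *ctsba*, named after its values were seen, was the 1 gene past the fold of 1.5. It had 5.39, 5.54 and 5.84 in WT and 4.78, 4.94 and 5.0 in the mutants, which do not overlap, and its change of -0.68 did not pass the test (limma adjusted p = 0.172). Of 17 regulators of MHC genes, 11 were measured with a median of 0.18, and the brightest were *nfyc* (-0.04) and *rfxap* (-0.03), which encode parts of promoter-binding complexes. Among these 11 regulators, 7 lay above 0 and 4 below. Without overlap were *nfya* (0.31) and *stat2* (0.21), higher, and *creb1b* (-0.40), lower, all named after their values were seen. None of these lists held a called gene, while the genotypes did not overlap in 5, 3 and 3 of their genes (25%, 21.4% and 27.3%), close to the 22.3% of all genes. Interferons raise the transcription of many MHC genes, and of 26 interferon response genes 23 were measured with a median of 0.09. The receptor genes *ifngr1* and *ifngr1l* were the brightest, with changes of -0.17 and 0.10, and 21 of the 23 were as dim as most members.

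Of the 25 measured genes from the lists of leukocyte and thymus markers none was called, and both means of 18 lay under the level of 3.905. By the same rule 0.182% of all genes were called lower and 0.0519% higher. The median of 4 of 6 macrophage and dendritic markers was 3.19 to 3.55 in WT and 3.24 to 3.58 in *il7r*-/- arrays, with *csf1ra* and *spi1b* the brightest (changes of -0.10 and 0.11). That of 5 of 5 general leukocyte markers was 3.27 to 3.52 in WT and 3.25 to 3.47 in the mutants. That of 4 of 4 genes listed as neutrophil markers was 3.67 to 3.83 and 3.63 to 4.10. The ranges of these medians overlapped between the genotypes. For 9 of 9 T cell and thymus markers the median was 2.59 to 2.81 in WT and 2.69 to 3.04 in the mutants, and for 3 of 4 B cell markers 2.80 to 2.84 and 2.31 to 3.68. The brightest were *coro1a* and *lcp1* (0.05 and 0.37), *cpa5* and *lyz* (0.04 and 0.29), *ccl25a* and *ikzf1* (-0.01 and -0.18), and *pax5* and *cd79a* (0.04 and 0.33). *cpa5* (5.79 to 6.57) and *pax5* (4.73 to 5.20) were far brighter than the rest of the neutrophil and B cell lists. Whether their signal came from those cells or from other cells and tissues of the larva was not tested. That *cpa5* marks neutrophils was not established here, and the medians of that list include it. The genotypes did not overlap in 3 of the 25 markers (12%), against 22.3% of all genes and 12.8% of those with both means under 3.905. The 3 were *lcp1*, higher in *il7r*-/- larvae, the leukocyte gene *laptm5*, lower (-0.20), and the recombination gene *rag2*, higher (0.36). Of the general leukocyte list, *lcp1* and *laptm5* made 2 of 5 (40%). *rag2* had values of 2.0 to 2.54, and *cd4-1* had a change of 0.34 with overlap. *rag2* and *cd4-1* were the 2 T cell and thymus markers above 0. The other 7 of the 9 lay below 0, among them *foxn1* (-0.30) and *rag1* (-0.02). In whole larvae, fewer cells of a type and less RNA in each cell cannot be told apart.

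Genes that neighbour the members were compared in the same way, since genes close together on a chromosome tend to be inherited together. Neighbours were genes with a probe set of their own within 20 places in the gene order of GRCz12tu, which is not stated to be the assembly the array was designed on. On chromosome 19, the core class I region holds 9 members in an unbroken row, from *tapbp.1* over *mhc1uka*, *tapbp.2*, *mhc1uba*, *psmb13a*, *psmb8a*, *psmb12* and *psmb9a* to *tap2a*. The 9 members had changes from -0.17 to 0.37 with a median of 0.04, and the genotypes overlapped in all of them. Their 33 neighbours had a median of -0.18, 25 of the 33 lay below 0, and in 14 (42.4%) the genotypes did not overlap, 12 lower and 2 higher, against 22.3% of all genes and 26.6% of the brighter ones. The neighbours were mostly brighter than the members, and their difference from other genes was not tested. The kinase gene *gsk3aa* was the neighbour that fell. It had values of 5.47, 5.73 and 5.48 in WT and 4.12, 4.00 and 4.53 in *il7r*-/- larvae, a change of -1.34 (limma adjusted p = 0.0467), and its call ended without any 1 of the 6 arrays (adjusted p from 0.0715 to 0.19). On the other side, the cartilage collagen gene *col11a2* had 6.32, 6.36 and 6.02 in WT and 7.05, 6.79 and 6.59 in the mutants, which do not overlap (change 0.58, limma adjusted p = 0.257).

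Near *mhc1haa* on chromosome 2, the neighbours mostly stayed near 0. Over 29 neighbours the median change was 0.05 and none was called, against 0.182% of all genes called lower and 0.0519% higher. The genotypes did not overlap in 8 of the 29 (27.6%), against 22.3% of all genes and 26.6% of the brighter ones. Past the fold of 1.5 were 2 of them, neither of which passed the test. The cone kinase gene *grk7a*, which lies 2 places away and acts in shutting off the light response, had a change of -0.91 (limma adjusted p = 0.125) with WT and mutant means of 5.88 and 4.97. The transporter gene *abca4b*, 19 places away, had a change of -0.77 (adjusted p = 0.297). In *grk7a* and in *abca4b* the genotypes did not overlap. The adjacent gene *atp1b3a* had a change of -0.12, and *xrn1* on the other side had the same. The lens marker *crybb1* also lay lower, as given above, and the part of eye tissue in the level of *mhc1haa* was not tested. For *mhc1zba* on chromosome 1, 12 of 32 neighbours (37.5%) did not overlap, 10 of them lower, against 22.3% of all genes and 26.6% of the brighter ones. The median change of the 32 was -0.08, and none was called. The class I and class II members on chromosome 8, with the light chain gene *b2ml*, numbered 11. Among their 84 neighbours 26 (31%) did not overlap, 12 lower and 14 higher, beside the same 22.3% and 26.6%. Their median change was 0.02. Around the 4 members on chromosome 25 the share was lower, with 3 of 19 neighbours (15.8%). Over all 502 distinct neighbours of members it was 130 (25.9%), with a median change of -0.04.

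**Figure D3:**
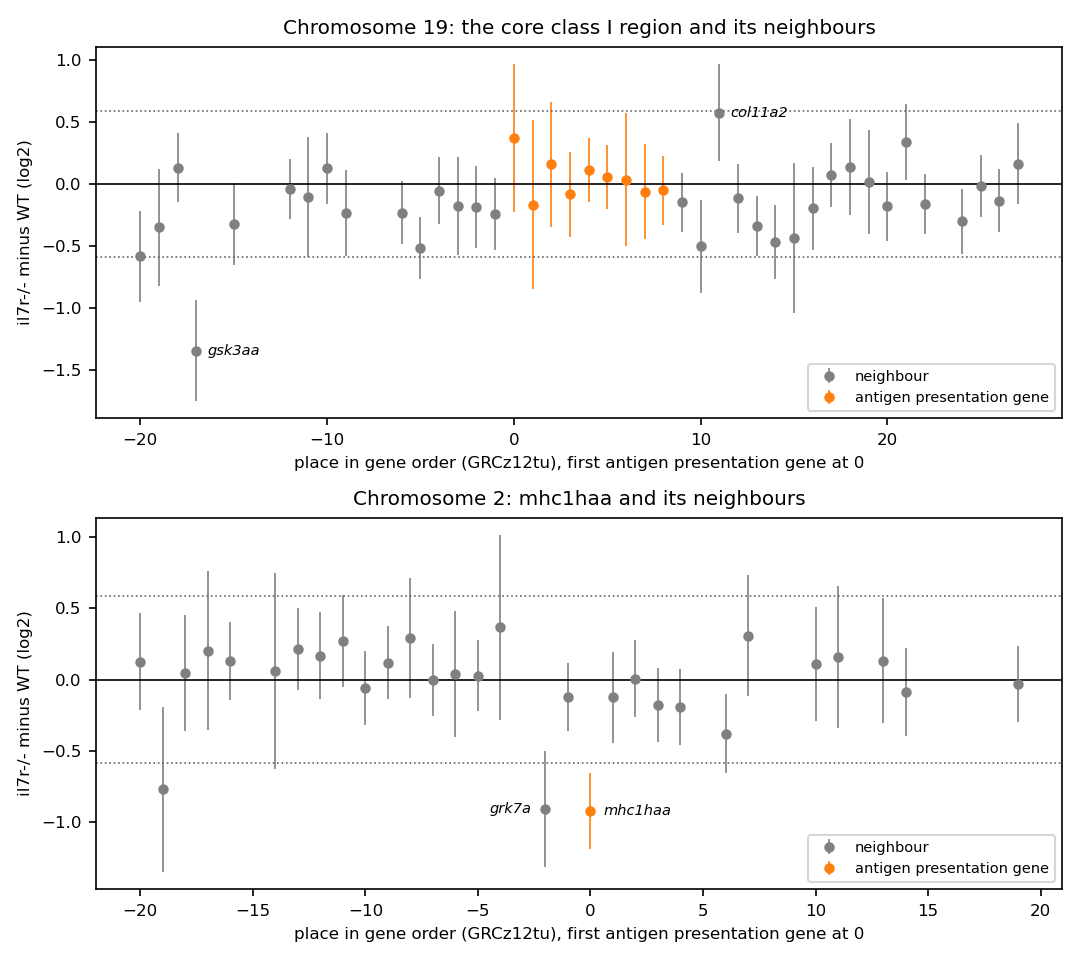
Change in log2 units (*il7r*-/- minus WT), with 95% intervals, against place in gene order around the core class I region on chromosome 19 (top) and around *mhc1haa* on chromosome 2 (bottom). Orange points are antigen presentation genes, grey points their measured neighbours and dotted lines a fold of 1.5, and the 9 genes of the core region lie from -0.17 to 0.37 while *gsk3aa* lies at -1.34.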

How the data were processed

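Total RNA of pooled whole larvae, 3 samples of WT and 3 of *il7r*-/- at 4 dpf, was hybridized by the authors to the Affymetrix Zebrafish Gene ST array. The deposited log2 values were made by RMA according to the submitters' processing notes, and the log base, which is not named, was read from the values. Without further normalization they were fitted with limma 3.58.1 in R 4.3.3 (lmFit and eBayes, two-sided, genotype as the factor), over all 75212 probe sets, of which 20806 name 1 gene, 855 several and 53551 none. The platform annotation named the genes.

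The members, lists and tests were chosen with earlier results of these data known. Every array's value is given for called members, members apart by at least 1 without overlap, members spanning at least 2 within a genotype and the 2 brightest of each class. The methods give 3 batches of larvae for the replicates, not tied to the replicate numbers, so no replicate block was used. The limma p-values set each change against the spread between these pools of larvae, 3 for each genotype, moderated by that of the other probe sets. Spread between single fish or between mutant lines was not measured. The procedure was run on simulated data drawn from the variances that limma fitted. These held no batches and no array that stood apart, so the run does not test for such effects. The alternatives were other tests, normalizations, filters, a replicate block and leaving out each array.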

Additional observations from a re-analysis of the deposited data

How the results depend on the processing

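*mhc1haa* was the called member in the analysis as reported, after quantile normalization, median centring, without a fold threshold, without the dimmest tertile of probe sets (which leaves out 25 members) and with probe sets of one gene averaged. The methods describe 3 batches of larvae, but neither they nor the labels tie the replicate numbers to batches, and deviations of same-numbered arrays had correlations of -0.008 to 0.023. *mhc1haa* was not called with the replicate block (0 members lower, 1 probe set called in all, adjusted p = 0.168) or by the methods' test after adjustment (0 members, 3 probe sets, adjusted p = 0.17). By the methods' test without adjustment 2 of 39 members were called, *mhc1haa* and *mhc1zba*, both lower. The same rule called 475 of 19260 genes in either direction, and 2447 of 75212 probe sets. Over only the probe sets that name 1 gene 2 members were lower, where 1.11% of all genes were called in either direction. No member was called higher under any of these. Leaving out 1 array gave 0 members lower each time and 5 to 293 probe sets called, against 224, each fit holding fewer arrays. Without WT replicate 3, a choice made after seeing the data, 11 members did not overlap (28.2%, against 37.6% of all genes). With arrays left out, small changes turned sign, ranging from -0.087 to 0.16 in *mhc1lia*, -0.44 to 0.10 in *mhc1uka*, -0.18 to 0.11 in *mhc2d4b*, -0.20 to 0.025 in *mhc2dcb*, -0.11 to 0.028 in *ciita*, -0.15 to 0.068 in *psmb9a* and -0.15 to 0.08 in *tap1*. The causes were not tested. Dim signal limits 32 members.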
